A study of Mus musculus with 4 samples.

Results

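The unfolded protein response was followed through 10 genes of its sensors, transcription factors, chaperones and degradation machinery: Ern1, Eif2ak3, Atf6, Atf4, Ddit3, Hspa5, Dnajb9, Sel1l, Syvn1 and Herpud1. The genes were listed by name for their place in the pathway, with earlier results of these data known. Every probe set annotated to one of them was taken, 25 of the 45037 probe sets compared, for 10 of 17097 measured genes. Each gene is described first by its brightest probe set, that of the highest average signal on the 4 arrays. The arrays held RNA of lymph node B cells from 2 miR-146a transgenic mice and 2 wild type mice, 1 array per mouse. Both groups were Balb/C, an inbred laboratory strain, labelled male and aged 6 to 8 weeks, with no treatment named. The transgenic mice over-express miR-146a, a microRNA that is known to dampen innate immune signalling. The labels give neither the promoter that drives the transgene nor the number of founder lines. B cells were enriched by magnetic removal of other cells, and dead cells were depleted before RNA extraction.

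The unfolded protein response is the answer of a cell to an excess of unfolded protein in the endoplasmic reticulum (ER). Its sensors sit in the ER membrane and are held inactive while the chaperone BiP, made from Hspa5, is bound to them. IRE1 alpha (Ern1) splices the Xbp1 messenger RNA, PERK (Eif2ak3) phosphorylates the translation factor eIF2 alpha so that ATF4 is made, and ATF6 is cut in the Golgi to free a transcription factor. Proteins that cannot be folded are passed to ER-associated degradation, in which the ubiquitin ligase HRD1 (Syvn1) and its partner SEL1L carry them out to the proteasome. In the B lineage the pathway is best known from plasma cells, which enlarge their ER to secrete antibody. Much of this signalling runs through splicing, phosphorylation and cleavage, which an array of transcript levels does not read.

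Sequences place the transgene's product and the pathway's DNA elements beside the values. The mature microRNA is shown first, with its seed, bases 2 to 8, in capitals, from RefSeq on GRCm38.p6 (chr11:43374435-43374456, minus strand).
mmu-miR-146a-5p: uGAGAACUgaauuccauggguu

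RefSeq promoter sequences of GRCm38.p6 (250 bases before to 50 after the start) were matched for 9 of the 10 genes, all but Atf6. They were searched on both strands for the ER stress response element, CCAAT and CCACG with 9 bases between, which ATF6 and XBP1 are known to bind together with NF-Y. A second form, ATTGG and CCACG with 1 base between, the XBP1 element TGACGTGG and the ATF4 composite element TGATGNAA were searched likewise. The first element was in the promoters of Hspa5 and Syvn1, against 39 of all 32851 promoters in the table (0.119%). The second was in that of Herpud1, against 12 of all promoters (0.0365%). TGACGTGG was found in none of the 9, against 0.676% of all promoters, and TGATGNAA in that of Herpud1 alone, against 3.97%. The stretches just before the start are shown because these elements lie there, with the letters of the elements in capitals, on the strand of the gene, which is the plus strand for all 3. In Herpud1 the first run of capitals is TGATGNAA read on the opposite strand. A match describes the letters only, and binding was not measured.
Hspa5, chr2:34772000-34772089: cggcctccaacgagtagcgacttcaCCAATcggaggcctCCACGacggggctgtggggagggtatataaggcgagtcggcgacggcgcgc
Syvn1, chr19:6046486-6046575: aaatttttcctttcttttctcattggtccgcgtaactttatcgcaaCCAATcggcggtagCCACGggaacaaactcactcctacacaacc
Herpud1, chr8:94386299-94386428: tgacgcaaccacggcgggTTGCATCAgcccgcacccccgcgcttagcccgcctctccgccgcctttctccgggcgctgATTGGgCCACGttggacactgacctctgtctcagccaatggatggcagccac

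Values are the authors' log2 signals, so a difference of 1 is a 2-fold change, and signals of different probe sets are not set against each other. One array stood apart. That of transgenic mouse 1 had an upper quartile of 6.14, against 6.51 for transgenic mouse 2 and 6.55 and 6.56 for the wild type mice. All 10 genes read lower on it than on the array of transgenic mouse 2, as did 74.17% of the 17097 genes, so the differences of the 10 genes and the list medians are also given without it. For beta-actin, the control probe set near the 3' end read 0.47 above the mid-transcript one there, against 0.15 on the array of transgenic mouse 2 and 0.16 and 0.14 on the wild type arrays. Against the probe set near the 5' end it read 0.38 and 0.16 higher on the transgenic arrays and 0.28 and 0.20 higher on the wild type arrays. Gapdh did not show this pattern. Its 3' control read 0.17 and 0.13 above the mid-transcript one on the transgenic arrays, against 0.31 and 0.32 on the wild type arrays. Its 3' minus 5' values were 0.018 and -0.20 on the transgenic arrays, against 0.075 and 0.093 on the wild type arrays. The part of RNA quality in the differences was not tested. Xist, the RNA that coats the inactive X chromosome of female cells, read 9.13 and 9.56 on the transgenic arrays and 5.96 and 6.19 on the wild type arrays, although all mice are labelled male. The Y-linked gene Eif2s3y read 7.80 to 8.34 on the 4 arrays.

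Marker transcripts of cell types also differed between the groups. The summed log2 signal of 9 measured B cell markers out of 10 was 78.3 and 79.2 on the transgenic arrays, against 86.8 and 87.1 on the wild type arrays. Cd79b, a chain of the B cell receptor, read 9.95 and 10.45 on the transgenic and 11.19 and 11.22 on the wild type arrays. Of 7 neutrophil markers out of 8 the sum was 47.7 and 49.5 on the transgenic arrays, against 36.6 and 37.0 on the wild type arrays, and S100a8, a calcium-binding protein that abounds in neutrophils, differed by 2.58. T cell markers (7 of 8) summed to 71.4 and 72.1 on the transgenic arrays, against 69.5 and 69.9 on the wild type arrays, but Cd4 differed by -0.79 while Cd8a and Cd8b1 differed by 1.14 and 0.74. Monocyte and macrophage markers (5 of 6) summed to 32.9 and 33.3 on the transgenic arrays, against 30.2 and 30.2 on the wild type arrays. The 4 measured plasma cell markers of 6 gave 27.1 and 27.9 on the transgenic and 28.5 and 27.9 on the wild type arrays. Among these, Jchain differed by -0.65, Irf4 by -0.35 and Prdm1, the regulator of plasma cell fate, by 0.43, and Tnfrsf17, the BCMA receptor, read 3.33 to 3.76 on the 4 arrays, near the mean of 23 non-specific control probe sets (3.02 to 3.18). In such bulk RNA, fewer cells of a type and less RNA per cell cannot be told apart. The part of cell composition in the differences below was not tested.

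None of the 10 genes passed limma's test at 0.05 once p-values were adjusted over all probe sets, where 0.0377% of probe sets passed as higher and 0.00888% as lower in transgenic B cells. At an unadjusted limma p under 0.05, 5 of the 10 were lower and 0 higher, against 10.2% and 3.83% of all genes. Of the 12024 genes whose signal lay above 4.10, 1657 were lower and 539 higher at that level. As deposited, the differences ran from -0.83 (Atf6) to 0.24 (Dnajb9), with 9 genes on the lower side and a median of -0.35. Of all genes, 60.24% were on the lower side. The median over all 17097 genes was -0.053, and over the 12024 genes whose signal lay above 4.10, as that of all 10 did, -0.11. After quantile normalization the medians were -0.19 for the 10 genes and 0.025 for those 12024. Without transgenic mouse 1 the median of the 10 was -0.16, and without transgenic mouse 2 it was -0.53. The 12024 genes shifted as well, to a median of 0.0076 once transgenic mouse 1 was dropped and -0.24 once mouse 2 was.

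The transgenic arrays lay wholly below the wild type arrays for 5 genes (Atf6, Atf4, Ddit3, Syvn1 and Herpud1) and wholly above for 1 (Dnajb9). Ern1, Eif2ak3, Hspa5 and Sel1l overlapped. Over all genes 31.4% lay wholly below and 17.7% wholly above, and over the genes above 4.10 these shares were 37.9% and 15.2%. For the 10 genes the gap between the 2 transgenic mice had a median of 0.29 (0.063 to 0.58), and that between the wild type mice a median of 0.036 (0.0070 to 0.14).

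**Figure D1:**
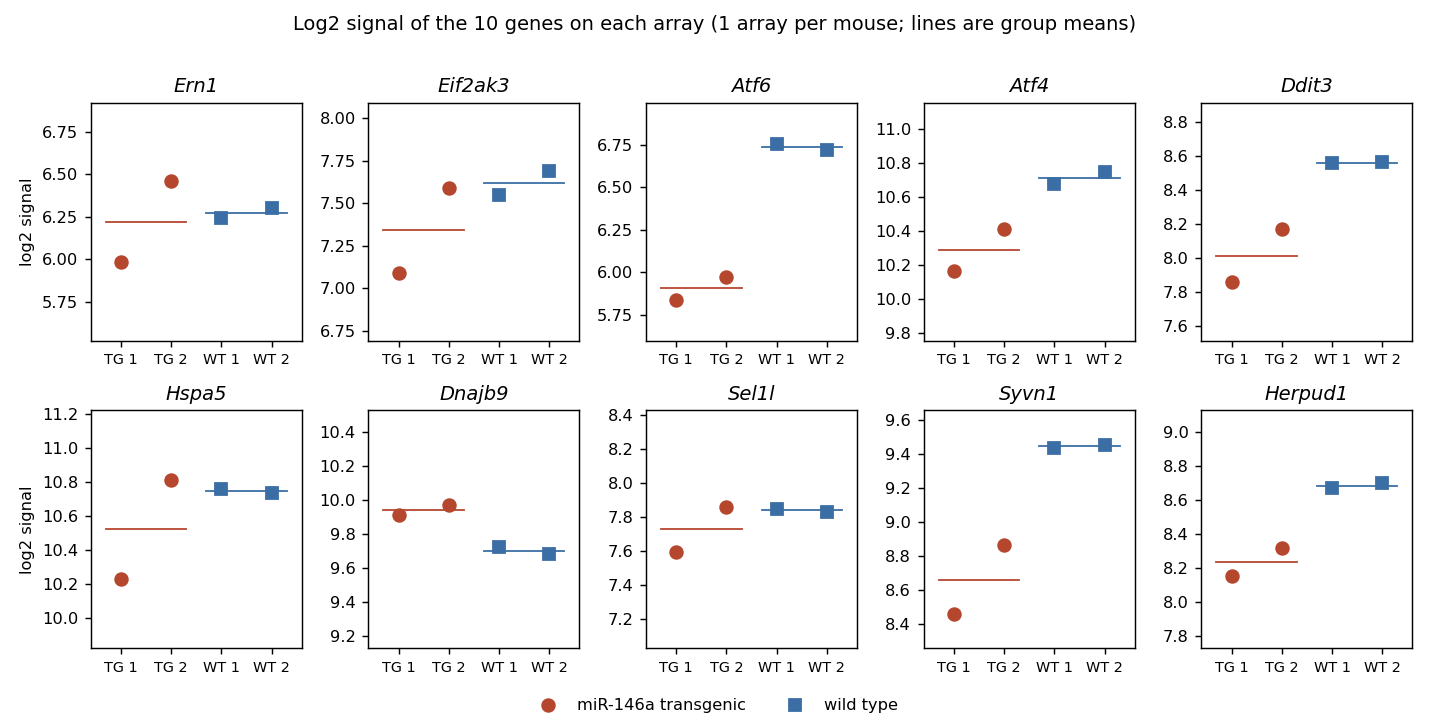
Log2 signal (vertical axes, each spanning 1.4 log2 units) of the 10 genes on the arrays of transgenic mice 1 and 2 (TG, circles) and wild type mice 1 and 2 (WT, squares), with lines at the group means. For Atf6, Atf4, Ddit3, Syvn1 and Herpud1 both circles lie below both squares, for Dnajb9 both lie above, and for the other 4 genes the groups overlap.

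Of the sensors, each by its brightest probe set, Atf6 was the one whose difference exceeded the spread between mice. ATF6 is the sensor that becomes a transcription factor of ER chaperone genes. Its signal was 5.84 and 5.97 on the transgenic arrays, against 6.76 and 6.72 on the wild type arrays (probe set 1435444_PM_at). Both transgenic mice read lower than both wild type mice, and the mice of a group lay within 0.14 of each other. The difference was -0.83 (SE 0.11, 95% interval -1.11 to -0.56), a 1.78-fold lower signal, with a limma adjusted p of 0.116. It was -0.76 without transgenic mouse 1 and -0.61 after quantile normalization. The other probe set of Atf6 (1456021_PM_at) read 5.56 and 6.02 on the transgenic and 6.41 and 6.45 on the wild type arrays, a difference of -0.64.

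Eif2ak3, which encodes PERK, read 7.09 and 7.59 on the transgenic arrays and 7.55 and 7.69 on the wild type arrays (1449278_PM_at). Only transgenic mouse 1 lay apart, while transgenic mouse 2 lay between the wild type mice. The difference of -0.28 (SE 0.19, 95% interval -0.79 to 0.23) had a limma adjusted p of 0.57 and was -0.028 without transgenic mouse 1. A dim probe set, 1430371_PM_x_at, which by its suffix may bind other transcripts, differed by -0.53, and the third by -0.22. On both of these the transgenic arrays lay wholly below the wild type arrays, the third near the control level (3.10 to 3.43).

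Ern1, which encodes IRE1 alpha, the nuclease that splices Xbp1, had 5.98 and 6.46 on the transgenic and 6.25 and 6.30 on the wild type arrays (1437119_PM_at). The transgenic mice lay on either side of the wild type mice. The difference was -0.052 (SE 0.18, 95% interval -0.53 to 0.43, limma adjusted p = 0.923). It turned to 0.17 after quantile normalization, 0.0013 after median centring and 0.19 without transgenic mouse 1. Its other 4 probe sets differed by -0.49 to 0.12. The lowest of these values came from 1438583_PM_at, where transgenic mouse 1 read 2.96 and the other 3 mice 3.75 to 3.92.

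Both transcription factors of the PERK branch read lower on both transgenic arrays. ATF4 controls amino acid supply and stress genes and is made mostly through translation of a transcript already present. Atf4 (1448135_PM_at) read 10.16 and 10.41 on the transgenic arrays, against 10.68 and 10.75 on the wild type arrays. The groups did not overlap, and the difference was -0.42 (SE 0.13, 95% interval -0.76 to -0.090, limma adjusted p = 0.293), or -0.30 without transgenic mouse 1. The other probe set of Atf4 (1439258_PM_at) lay near the control level at 2.94 to 3.52, and its groups overlapped.

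Ddit3 encodes CHOP, the factor downstream of ATF4 that promotes cell death when ER stress lasts. Its signal was 7.86 and 8.17 on the transgenic arrays and 8.56 and 8.57 on the wild type arrays (1417516_PM_at, its only probe set). The wild type mice were within 0.0070 of each other, and both transgenic mice lay below them. The difference was -0.55 (SE 0.14, 95% interval -0.91 to -0.18), a 1.46-fold lower signal, with a limma adjusted p of 0.242. Without transgenic mouse 1 it was -0.39.

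The chaperones did not share a direction. Hspa5, which encodes BiP, the main Hsp70 chaperone of the ER, read 10.23 and 10.81 on the transgenic arrays and 10.76 and 10.74 on the wild type arrays (1416064_PM_a_at). Transgenic mouse 1 was low and transgenic mouse 2 slightly above both wild type mice. The difference of -0.23 (SE 0.21, 95% interval -0.78 to 0.33, limma adjusted p = 0.662) turned to 0.062 without transgenic mouse 1. The other Hspa5 probe set (1427464_PM_s_at) read 10.27 and 10.23 on the transgenic and 10.23 and 10.30 on the wild type arrays, a difference of -0.015, and on it transgenic mouse 1 was not low.

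Dnajb9 was the 1 gene of the 10 on the higher side. It encodes ERdj4, a J-domain partner of BiP known as a target of the spliced XBP1 protein. Its signal was 9.91 and 9.98 on the transgenic arrays, against 9.72 and 9.68 on the wild type arrays (1417191_PM_at, its only probe set). Both transgenic mice lay above both wild type mice. The difference was 0.24 (SE 0.098, 95% interval -0.016 to 0.50), a 1.18-fold higher signal, with a limma adjusted p of 0.387. It was 0.27 without transgenic mouse 1, 0.21 without transgenic mouse 2 and 0.38 after quantile normalization.

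The 3 genes of the degradation complex differed by unequal amounts. Syvn1, which encodes the ubiquitin ligase HRD1, read 8.46 and 8.86 on the transgenic arrays, against 9.44 and 9.45 on the wild type arrays (1443609_PM_s_at). The wild type mice were nearly level, and both transgenic mice lay below them. The difference was -0.78 (SE 0.16, 95% interval -1.21 to -0.36), a 1.72-fold lower signal, with a limma adjusted p of 0.197. It was -0.58 without transgenic mouse 1. The other probe set (1428070_PM_at) gave nearly the same result, with 7.51 and 7.75 on the transgenic and 8.37 and 8.41 on the wild type arrays, a difference of -0.76.

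Herpud1 encodes an ER membrane protein with a ubiquitin-like domain that helps to assemble the HRD1 complex. It read 8.15 and 8.32 on the transgenic arrays and 8.67 and 8.70 on the wild type arrays (1448185_PM_at). The groups did not overlap. The difference was -0.45 (SE 0.11, 95% interval -0.74 to -0.16, limma adjusted p = 0.231), and it was -0.37 without transgenic mouse 1. The other probe set of Herpud1 (1435626_PM_a_at) read 7.69 and 7.70 on the transgenic and 7.94 and 7.96 on the wild type arrays, a difference of -0.26.

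Sel1l encodes the adaptor that holds HRD1 and its substrates together. It read 7.59 and 7.86 on the transgenic arrays, against 7.85 and 7.83 on the wild type arrays (1436774_PM_at). Transgenic mouse 1 was low and transgenic mouse 2 level with the wild type mice. The difference of -0.11 (SE 0.13, 95% interval -0.45 to 0.23, limma adjusted p = 0.728) turned to 0.023 without transgenic mouse 1 and to 0.067 after quantile normalization. Its other 4 probe sets were on the higher side, by 0.0039 to 0.33, and the mean of all 5 differed by 0.086. On 1430692_PM_a_at the transgenic arrays, at 5.21 and 5.37, lay above the wild type arrays, at 4.914 and 4.998.

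**Figure D2:**
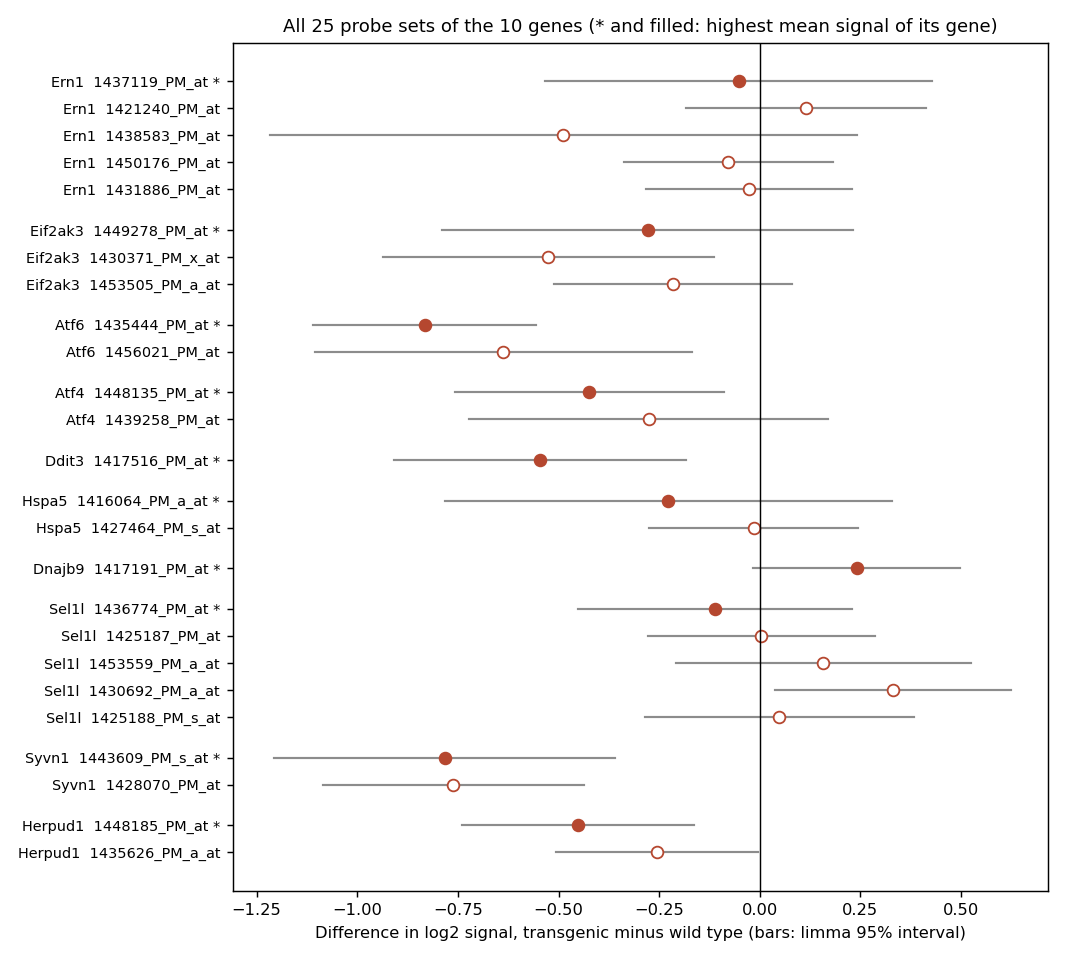
Difference in log2 signal, transgenic minus wild type (horizontal axis), for all 25 probe sets of the 10 genes, with limma's 95% interval as bars. Filled circles mark the probe set with the highest mean of each gene. Both probe sets of Atf6 and of Syvn1 lie between -0.83 and -0.64, and the 5 probe sets of Sel1l lie between -0.11 and 0.33.

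Over all 25 probe sets, 19 read lower and 6 higher in transgenic B cells, where 60.24% of all genes read lower by their brightest probe set. Of the 25, 12 lay wholly below and 2 wholly above the wild type arrays, against 31.4% and 17.7% of all probe sets. The mean signal of 19 of the 25 lay above 4.10, and over the genes above it these shares were 37.9% and 15.2%. Probe sets of a gene share its transcript and are not separate evidence. How many of the genes passed changed with the scaling and with the transgenic array left out. After quantile normalization Syvn1 passed as lower (limma adjusted p = 0.0459), with 1.04% of all probe sets called lower, and after median centring Atf6 did (limma adjusted p = 0.0372), with 0.944% called lower. With transgenic mouse 1 left out 4 of the 10 passed as lower (Atf6, Ddit3, Syvn1 and Herpud1), against 5.16% of all probe sets. With transgenic mouse 2 left out 9 passed as lower, against 32.9% of all probe sets. In these last fits a single mouse stands for the transgenic group and is taken to vary as the wild type mice do. Genes above 4.10, as all 10 were, passed as lower more often in both fits than all probe sets did. The shares given for these fits therefore understate the background of such genes.

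**Figure D3:**
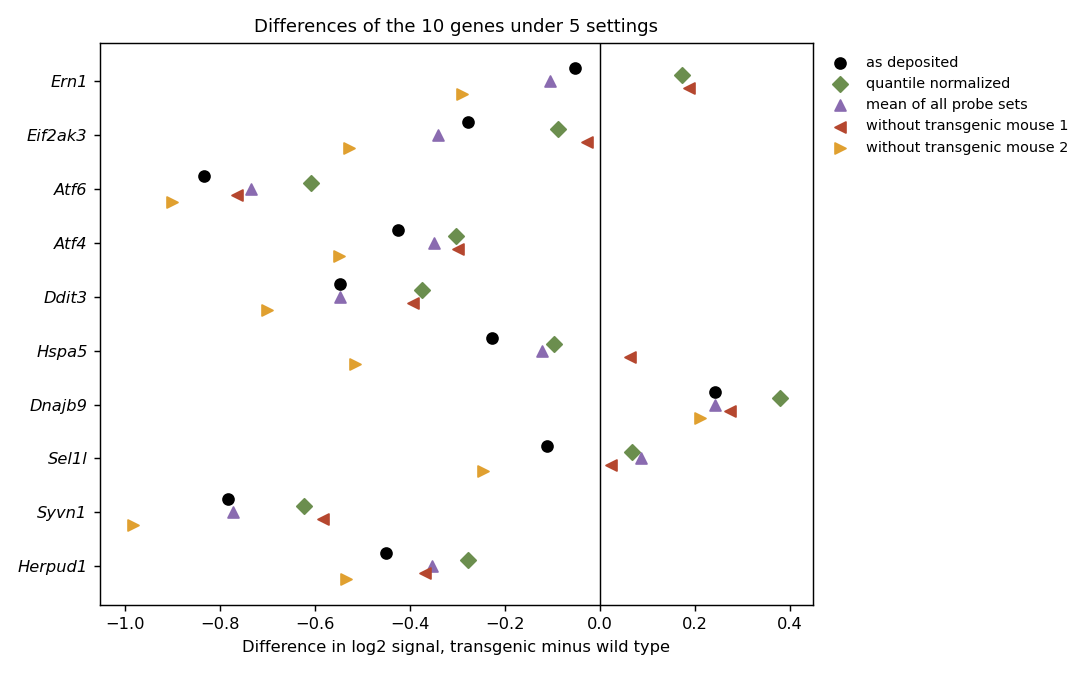
Difference in log2 signal, transgenic minus wild type (horizontal axis), of each of the 10 genes as deposited, after quantile normalization, as the mean of all its probe sets, and without either transgenic mouse. Atf6 stays between -0.90 and -0.61 and Dnajb9 between 0.21 and 0.38, whereas Ern1, Hspa5 and Sel1l lie on both sides of 0.

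The rest of the pathway was read through 5 further lists, of which 57 of 60 genes were measured. None of the 57 passed adjusted over all probe sets (limma). At an unadjusted limma p under 0.05 there were 2 higher and 9 lower, against 3.83% and 10.2% of all genes. Of the 12024 genes above 4.10, 539 were higher and 1657 lower at that level. Wholly below the wild type arrays lay 29 of them and wholly above 6, against 31.4% and 17.7% of all genes. Most of the 57 lay above 4.10, and over the genes above it these shares were 37.9% and 15.2%. Both pairs of shares are to be set beside the counts of each list. Their median was -0.15 as deposited, 0.0079 after quantile normalization and -0.013 without transgenic mouse 1. Over all genes these medians were -0.053, 0.020 and 0.012, and over the 12024 genes above 4.10 they were -0.11, 0.025 and 0.0076.

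Among 14 ER chaperones and folding enzymes the median was -0.087 as deposited, 0.094 after quantile normalization and 0.072 without transgenic mouse 1, with 5 genes wholly below and 4 wholly above the wild type arrays. Pdia3, a disulfide isomerase for glycoproteins, read 4.60 and 4.74 on the transgenic arrays and 4.25 and 4.37 on the wild type arrays, a difference of 0.36. Its only probe set was thus dim, not far above 4.10. Sil1, the nucleotide exchange factor of BiP, had 6.40 and 6.92 on the transgenic and 7.23 and 7.13 on the wild type arrays, a difference of -0.52. P4hb and Pdia6, both disulfide isomerases, differed by -0.28 and -0.24. With transgenic mouse 1 left out, the differences were 0.43 for Pdia3, -0.26 for Sil1, -0.17 for P4hb and -0.18 for Pdia6. A dimmer probe set of Pdia6 went the other way as deposited, by 0.18. It read 4.57 and 4.55 on the transgenic and 4.38 and 4.36 on the wild type arrays. The ER stress element shown for Hspa5 and Syvn1 was found in 7 of the 48 promoters matched for these lists, 6 of them in this one (Calr, Canx, Creld2, Dnajc3, Hsp90b1 and Pdia6) and Derl3. The 9 genes that hold it differed by -0.78 to 0.22, with a median of -0.17.

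The 9 genes that process the sensors or modulate them had a median of -0.22 (-0.052 after quantile normalization and -0.032 without transgenic mouse 1), with 5 wholly below and 0 wholly above. Xbp1, whose transcript IRE1 alpha splices, read 10.08 and 10.12 on the transgenic and 10.08 and 10.06 on the wild type arrays (1437223_PM_s_at), a difference of 0.028 (limma adjusted p = 0.921). Its other 3 probe sets differed by -0.23 to 0.21, and the spliced form was not told apart from the unspliced. Rtcb, the ligase that joins the Xbp1 ends after splicing, read 9.38 and 9.79 on the transgenic and 9.99 and 9.99 on the wild type arrays, a difference of -0.40. Tmbim6, an inhibitor of ER-stress cell death, differed by -0.26, Creb3l2, an ER-bound factor cut like ATF6, by -0.43, and Atf6b, the paralogue of Atf6, by -0.18. Without transgenic mouse 1 these were -0.20 for Rtcb, -0.16 for Tmbim6, -0.12 for Creb3l2 and -0.032 for Atf6b. On the dimmer probe set of Creb3l2 the groups overlapped, with a difference of 0.037 as deposited.

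The kinases of eIF2 alpha other than PERK, with subunits of its phosphatase, were measured for 5 of 6 genes, and all 5 lay wholly below the wild type arrays (median -0.27, -0.29 after quantile normalization and -0.17 without transgenic mouse 1). Eif2ak4, the amino acid sensor GCN2, read 5.25 and 5.50 on the transgenic arrays, against 6.06 and 6.14 on the wild type arrays. Its difference was -0.73 (SE 0.13, limma adjusted p = 0.168). Eif2ak1, the haem-regulated kinase, read 6.31 and 6.49 on the transgenic and 6.89 and 6.94 on the wild type arrays, a difference of -0.51, and its other 2 probe sets differed by -0.43 and -0.61. Eif2ak2, the kinase PKR, lay near the control level (2.91 to 3.33), and its differences are the list medians above. The phosphatase subunits Ppp1r15a and Ppp1r15b differed by -0.079 and -0.16, and by 0.057 and -0.00089 after quantile normalization. Their groups were barely apart, with the nearest arrays at 9.8902 and 9.8925 for Ppp1r15a and 8.9725 and 8.9776 for Ppp1r15b. The dimmer probe set of Ppp1r15b overlapped, with a difference of 0.073. Without transgenic mouse 1 the differences were -0.60 for Eif2ak4, -0.42 for Eif2ak1, -0.17 for Eif2ak2, -0.058 for Ppp1r15a and -0.013 for Ppp1r15b.

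The 14 targets of ATF4 had a median of -0.12 as deposited, 0.033 after quantile normalization and -0.020 without transgenic mouse 1, with 7 wholly below and 1 wholly above. The gene above was Atf3, a stress-induced factor of the ATF family, which read 6.04 and 6.30 on the transgenic arrays and 5.44 and 5.61 on the wild type arrays. It differed by 0.65 (SE 0.14, limma adjusted p = 0.207), and after quantile normalization by 0.84 (limma adjusted p = 0.0358), where 0.893% of all probe sets passed as higher. Without transgenic mouse 1 it differed by 0.78. Ddit4, an inhibitor of mTORC1, differed by -0.63, Atf5 by -0.55 and Sesn2, a leucine sensor, by -0.50. These 3 were at -0.41, -0.27 and -0.26 without transgenic mouse 1.

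Of 15 further degradation genes, 7 lay wholly below and 1 wholly above the wild type arrays (median -0.19, -0.049 after quantile normalization and -0.0089 without transgenic mouse 1). Edem2, which trims mannose from misfolded glycoproteins, read 6.93 and 7.12 on the transgenic and 7.47 and 7.53 on the wild type arrays, a difference of -0.48. Erlec1, a lectin of the HRD1 complex, differed by -0.49, and its dimmer probe set by 0.076. Derl3 differed by -0.34. Derl1, which like Derl3 belongs to the derlins of the export channel, differed by -0.44 on its probe set with the highest mean, but by -0.22 and 0.28 on the other 2. Leaving out transgenic mouse 1 gave -0.38 for Edem2, -0.33 for Erlec1, -0.30 for Derl3 and -0.23 for Derl1.

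**Figure D4:**
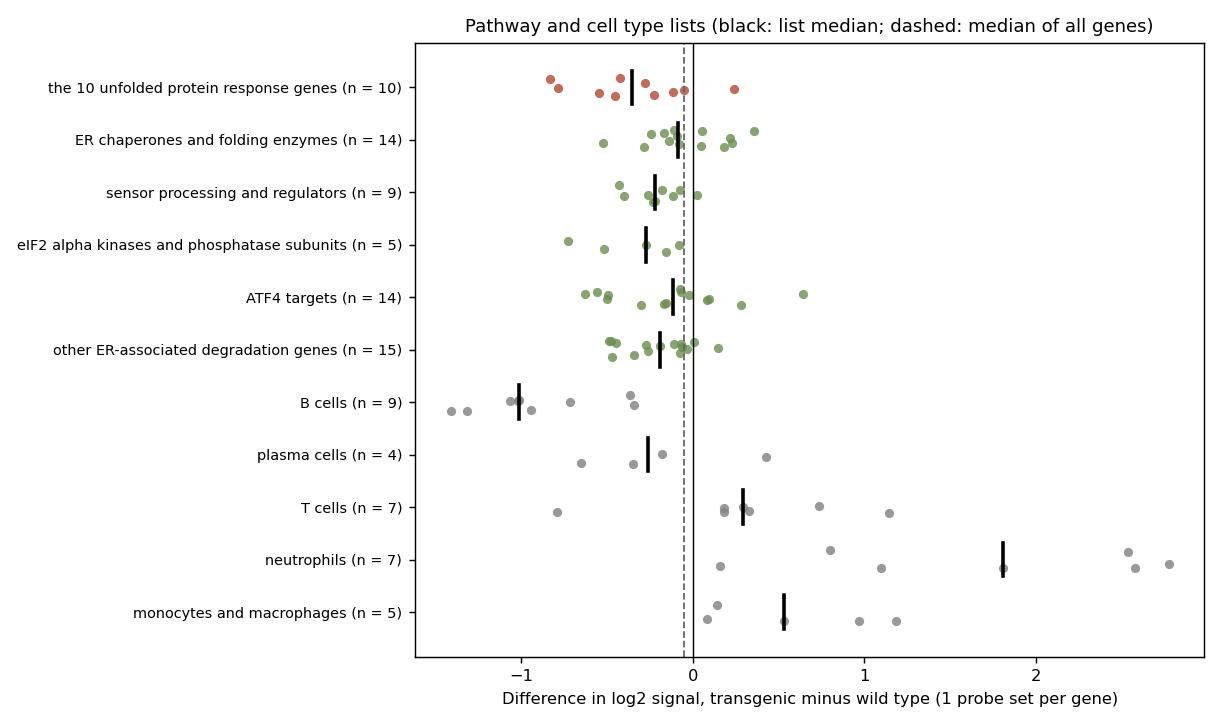
Difference in log2 signal, transgenic minus wild type (horizontal axis), of single genes in the 10 unfolded protein response genes, 5 further pathway lists and 5 cell type marker lists, with black bars at list medians and a dashed line at the median of all genes (-0.053). The 10 genes have a median of -0.35, the B cell markers -1.01 and the neutrophil markers 1.81.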

How the data were processed

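Total RNA labelled with the GeneAtlas 3' IVT Express Kit was read on Affymetrix arrays, per the labels' protocols. The authors deposited 1 log2 signal per probe set and array, read as log2 from its range (2.01 to 13.03). Background correction, normalization and probe summary are not given in the sources used here, and detection calls were not used. Groups came from sample titles. Gene names came from the platform annotation, matched by Entrez ID to RefSeq (GRCm38.p6), and 104 control probe sets were left out. The 2 groups were compared by limma (version 3.58.1, under R 4.3.3), with a linear model, empirical Bayes variances and no block. The p-values were two-sided, with Benjamini-Hochberg adjustment across 45037 probe sets and a threshold of 0.05. The fit was first run on simulated data, with 50 probe sets changed at each size. It recovered 10% of log2 changes of 1 and 90% of those of 2, with 8 false calls. The differences of the 10 genes were all smaller than 1. The p-values reflect the spread of 2 mice in each group, shared across probe sets. An exact permutation test of 2 against 2 could not reach 0.05.

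The members and lists were chosen with earlier results of these data known, so no p-value is given for a list. Named were all 10 genes, at most 4 genes per pathway list by smallest p, and Xbp1. Ppp1r15a was named as the last measured gene of its list, after its values were seen. Genes named among the cell type markers were chosen after their values were seen. Of the 60 pathway genes listed, 57 were analysed here. Alternatives were quantile normalization, a replicate block, centring on array medians, a threshold of 0.1, averaging a gene's probe sets, robust eBayes with a trend, leaving out each array, and dropping probe sets whose mean lay below the 40th percentile (4.10). Figures were drawn with matplotlib 3.10.9.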

Additional observations from a re-analysis of the deposited data

How the results depend on the processing

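All 10 genes kept their direction in every alternative run except Ern1, Hspa5 and Sel1l. Ern1 was at 0.17 after quantile normalization and 0.0013 after median centring. Sel1l was at 0.067 after quantile normalization and 0.086 as the mean of its probe sets. Leaving out each mouse in turn gave -0.29 to 0.19 for Ern1, -0.52 to 0.062 for Hspa5 and -0.25 to 0.023 for Sel1l, and the upper value was that without transgenic mouse 1 in each. As deposited 0 of the 10 genes and 21 probe sets passed limma's adjusted p of 0.05 (6153 probe sets at an unadjusted p under 0.05). Quantile normalization gave 1 gene and 870 probe sets, median centring 1 gene and 614, the filter on dim probe sets 51 probe sets, which tests fewer, and a threshold of 0.1 gave 139. Without each mouse in turn the counts ran from 0 to 9 genes and from 0 to 19110 probe sets, 0 without either wild type mouse (1631 and 1576 at an unadjusted p under 0.05) and 4140 without transgenic mouse 1. Medians after quantile normalization were -0.187 for the 10 genes, 0.0938 for the chaperones and -0.0524 for sensor processing. Leaving out mice gave -0.531 to -0.163 for the 10 genes, -0.211 to 0.0723 for chaperones, -0.358 to -0.0323 for sensor processing and -0.372 to -0.167 for eIF2 alpha kinases. The cause of these shifts was not tested. The mice share numbers across groups but no label pairs them, and deviations of arrays with the same number were not related (correlation 0.014), so the replicate block was an alternative, with 15 probe sets and 0 of the 10 genes past the threshold. Precision is limited by 2 arrays per group, and signals near the controls understate differences.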
